A study of Mus musculus with 6 samples.

Results

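Cathepsins are the proteases of lysosomes and related granules, and 10 of their genes were read here in whole blood: Ctsa, Ctsb, Ctsc, Ctsd, Ctse, Ctsh, Ctsl, Ctss, Ctsw and Ctsz. Array probes were assigned to them by matching the RefSeq accession of each probe to its gene symbol, which gave 15 probes for the 10 genes, out of 41174 probes of which 23374 were named for 16535 genes. The blood came from male C57BL/6J mice, an inbred strain, aged 9 weeks. The control group received a normal diet and the other group 50% food restriction (FR) for 2 weeks, with 8 animals per diet. No allele, transgene or drug separated the groups, and all animals were bled from the right ventricle under anaesthesia. RNA was pooled within each diet, animals 1 to 8 in pool 1, 1 to 4 in pool 2 and 5 to 8 in pool 3. FR and control RNA of a pool were hybridised together, once in each dye orientation, so that every pool has 2 arrays and the study 6. Because their animals differ, pools 2 and 3 serve as the 2 replicates of each test. Pool 1 mixes the animals of both and repeats the measurement on another slide. Single animals cannot be read from pooled RNA, and the blood was not sorted into cell types.

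Most cathepsins are made as inactive precursors that are cut and activated in the acid lysosome. Cathepsins B, C, H, L, S, W and Z are cysteine proteases, D and E are aspartic proteases, and A is a serine carboxypeptidase. Monocytes, B cells and dendritic cells use cathepsin S to degrade the invariant chain before MHC class II molecules can take up peptide. Cathepsin C removes dipeptides that keep granule serine proteases inactive, and cathepsin W belongs to cytotoxic lymphocytes. Cathepsin E differs in place: besides stomach and antigen-presenting cells it is known from red cells, where it is bound to the membrane.

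Start-site windows from RefSeq (build GRCm38.p6, 250 bases before to 50 after the annotated start, gene strand) were on hand for 6 of the 10 genes, in 7 windows. They were searched on both strands for TCACGTG, the core of the element of many lysosomal genes, GAGGAAG, a form of the PU.1 site of myeloid and B cells, and AGATAA, a form of the GATA site of erythroid cells. Shown are the windows of Ctss, the cathepsin that fell most, and of the 3 other lowered cathepsins with a match to one of the first 2 motifs; capitals mark the matches.
Ctss, chr3:95526536-95526835, plus strand: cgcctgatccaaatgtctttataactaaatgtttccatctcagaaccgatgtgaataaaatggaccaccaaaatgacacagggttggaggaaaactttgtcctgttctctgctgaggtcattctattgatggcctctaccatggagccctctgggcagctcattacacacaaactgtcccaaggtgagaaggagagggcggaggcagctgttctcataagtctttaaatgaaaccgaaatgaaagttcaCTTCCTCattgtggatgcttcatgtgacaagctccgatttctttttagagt
Ctsc, chr7:88277835-88278134, plus strand: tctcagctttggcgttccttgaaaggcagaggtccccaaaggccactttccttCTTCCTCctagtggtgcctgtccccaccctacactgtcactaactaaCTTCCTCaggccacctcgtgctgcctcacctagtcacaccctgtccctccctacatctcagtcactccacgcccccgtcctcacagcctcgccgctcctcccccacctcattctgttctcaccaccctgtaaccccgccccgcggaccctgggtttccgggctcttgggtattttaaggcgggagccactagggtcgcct
Ctsd, chr7:142387778-142388077, minus strand: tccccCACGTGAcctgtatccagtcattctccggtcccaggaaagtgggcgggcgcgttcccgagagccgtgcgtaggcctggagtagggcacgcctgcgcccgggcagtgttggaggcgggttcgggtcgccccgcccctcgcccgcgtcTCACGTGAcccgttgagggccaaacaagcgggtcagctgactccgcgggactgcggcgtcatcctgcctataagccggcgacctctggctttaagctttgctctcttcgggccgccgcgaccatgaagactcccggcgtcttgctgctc
Ctsa, chr2:164833523-164833822, plus strand: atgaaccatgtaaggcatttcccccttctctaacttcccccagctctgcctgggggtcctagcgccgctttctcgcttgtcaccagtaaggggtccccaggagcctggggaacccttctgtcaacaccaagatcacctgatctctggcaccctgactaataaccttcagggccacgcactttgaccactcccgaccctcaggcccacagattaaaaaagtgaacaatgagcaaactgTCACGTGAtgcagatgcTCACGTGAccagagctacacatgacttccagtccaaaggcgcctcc
TCACGTG occurred in 2 of the 7 windows, those of Ctsd and of the second Ctsa start, and in 3.77% of the 32851 windows of the table. In Ctsa it lay at bases 238 to 244 and 255 to 261 of the window, counted from its 5′ end, and each copy was also read from the other strand 1 base further on. In Ctsd it lay at bases 152 to 158, again on both strands, with another copy on the reverse strand at bases 6 to 12. GAGGAAG occurred in the windows of Ctss, at bases 250 to 256 on the reverse strand, and Ctsc, at bases 54 to 60 and 101 to 107 on the reverse strand, and in 13.6% of all windows. AGATAA was found in the window of Ctsz alone among the 7 and in 11.2% of all. The windows of Ctsl and of the first Ctsa start held none of these letters.

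Food restriction lowered 8 of the 9 cathepsin genes that could be tested and raised the remaining one, Ctse. A log2 ratio of -1 means that FR had a signal of 1/2 that of control, relative to the other transcripts on the array. The test was limma's moderated test of whether the mean log2 ratio of both pools differs from 0. Its p-values were adjusted by Benjamini-Hochberg over 11499 features, and the threshold was 0.05. Of 7906 named genes tested, 28.2% were lower and 3.26% higher, so a fall was common in this blood and a rise was rare. The 9 tested cathepsins, Ctse among them, had a median log2 ratio of -0.85, against -0.04 over all named genes. A gene entered if its probe was well above background in FR or in control on all 4 arrays, and Ctsc and Ctsw entered through control alone, so this filter favoured a fall for them. Among genes above background in both diets on all 4 arrays, 6 of 7 cathepsins were lower and 1 higher, where 21.9% and 5.52% of 4804 named genes were. With median centring in place of loess the median of all features moved from 0.01 to -0.18. The split of the cathepsins became 8 lower and 0 higher, where 3209 and 107 of the 7906 named genes were. In bulk blood, fewer cells of a type and less RNA per cell cannot be told apart.

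**Figure D1:**
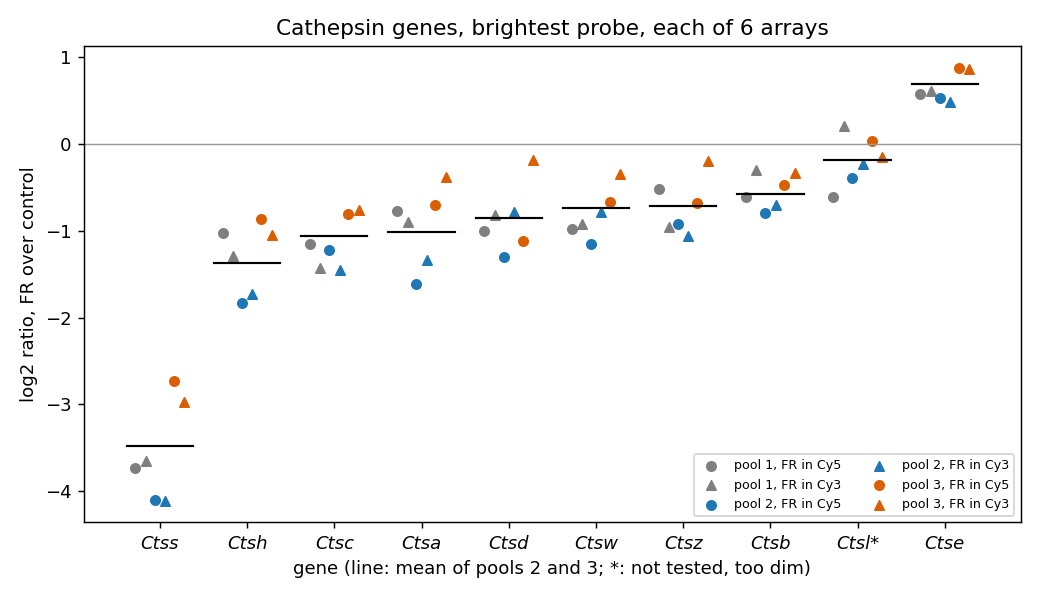
Log2 ratio of FR over control (vertical axis) for the brightest probe of each cathepsin gene on each of the 6 arrays. Colour gives the pool, circles FR in Cy5, triangles FR in Cy3, and the line the mean of pools 2 and 3; Ctsl, with a star, was too dim to test. The 8 lowered genes lie below 0 on all 6 arrays, 48 of 48 values, and Ctse lies above 0 on all 6. These genes were called on the arrays of pools 2 and 3, and the remaining pool mixes the same animals. The agreement of the arrays is therefore a description and not independent support for the calls.

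With only 2 pools, limma's fit assigned one common variance to all genes of like signal, which makes the adjusted p-values too small for single genes. A stricter reading sets the prior degrees of freedom to 5.41, as estimated from all 3 pools, and its adjusted p is given below for each gene as the stricter limma p. Under it 7 cathepsins were lower and 1 higher, with 17.9% and 1.29% of named genes called. In a fit that treats the channels as unpaired (no replicate block), 5 were lower and 0 higher, with 9.87% and 0.847% called.

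Ctss, the endopeptidase of antigen-presenting cells, fell 11.1-fold. On the probe A_51_P423981 the log2 signal of control was 11.08, 11.93 and 10.95 in pools 1, 2 and 3, and that of FR was 7.39, 7.83 and 8.09. No FR pool came within 2 log2 units of a control pool. The log2 ratios were -3.73 and -3.65 on the arrays of pool 1 with FR in Cy5 and in Cy3, -4.10 and -4.11 in pool 2, and -2.73 and -2.98 in pool 3. Both dye orientations gave nearly the same value within a pool, and pool 3 showed the smallest fall. The mean was -3.48 ± 0.88 (SD, n = 2 pools), the rank from the bottom was 5 among 7906 genes, and the stricter limma p was 0.0019. Agilent's processed signals gave -4.11 and the ratios of the authors' deposited table -4.25, both without the added offset.

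Ctsl, the other endopeptidase that can degrade the invariant chain, could not be tested. Its probe was well above background on 3 of the 4 control arrays and on none of the FR arrays. Its log2 ratios were -0.62 and 0.20 in pool 1, -0.39 and -0.23 in pool 2, and 0.03 and -0.15 in pool 3. These lie on both sides of 0.

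Ctsh and Ctsc, which trim peptides from their amino end, were also lower. Ctsh, an aminopeptidase of lysosomes, had control log2 signals of 10.43, 10.94 and 10.53 and FR signals of 9.28, 9.16 and 9.57 in pools 1, 2 and 3. Control and FR did not overlap, and the ratio was -1.37 ± 0.58 (SD, n = 2 pools), or 2.59-fold lower, with a stricter limma p of 0.0089. Ctsc, also called dipeptidyl peptidase 1, had control signals of 7.36, 7.78 and 7.23 and FR signals of 6.06, 6.44 and 6.45. FR was well above background on 0 of the 4 arrays, so the measured ratio of Ctsc does not fix the size of its fall. Without background subtraction its mean log2 ratio was -0.83. As reported here, Ctsc was 2.09-fold lower in FR, at -1.34 in pool 2 and -0.79 in pool 3. Its stricter adjusted p from limma was 0.0092. Processed signals put its ratio at -3.52 and the authors' deposited table at -3.69, against -1.06 ± 0.39 (SD, n = 2 pools) here.

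Ctsb, an endopeptidase, had the smallest fall among the called members. Its control log2 signals were 13.43, 13.46 and 13.18 and its FR signals 12.98, 12.72 and 12.77. The groups stood apart by little, and the ratio of -0.58 ± 0.24 (SD, n = 2 pools), or 1.49-fold lower, passed limma at an adjusted p of 0.0018. That call ended under the stricter limma p of 0.059, without the replicate block at 0.066 and on the arrays with FR in Cy3 alone at 0.095. Ctsz, a carboxypeptidase of monocytes and macrophages, went from 9.17, 9.83 and 9.38 in control to 8.43, 8.83 and 8.94 in FR. Its ratio was -0.72 ± 0.39 (SD, n = 2 pools), 1.65-fold lower, with a stricter limma p of 0.037. Without the replicate block the p was 0.079 and the call ended.

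Ctsw, the cysteine protease of NK and cytotoxic T cells, was dim. Control log2 signals were 7.42, 7.89 and 7.45 and FR signals 6.47, 6.92 and 6.94, and FR was above background on 3 of the 4 arrays. The ratio was -0.74 ± 0.32 (SD, n = 2 pools), or 1.67-fold lower, with a stricter limma p of 0.029, and -1.39 with processed signals. Without the replicate block its limma p was 0.077 and the call ended.

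Ctsa, the carboxypeptidase that also shields the sialidase Neu1 and the galactosidase Glb1 from degradation, had control log2 signals of 8.55, 9.20 and 8.58 and FR signals of 7.71, 7.73 and 8.03. FR was lower in each pool, by most in pool 2, where the ratio was -1.48 against -0.55 in pool 3. The mean was -1.01 ± 0.66 (SD, n = 2 pools), 2.02-fold lower, with a stricter limma p of 0.031. Neu1 and Glb1, picked out after their values were seen, were at -0.01 ± 0.02 and -0.21 ± 0.03 and did not pass.

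**Figure D2:**
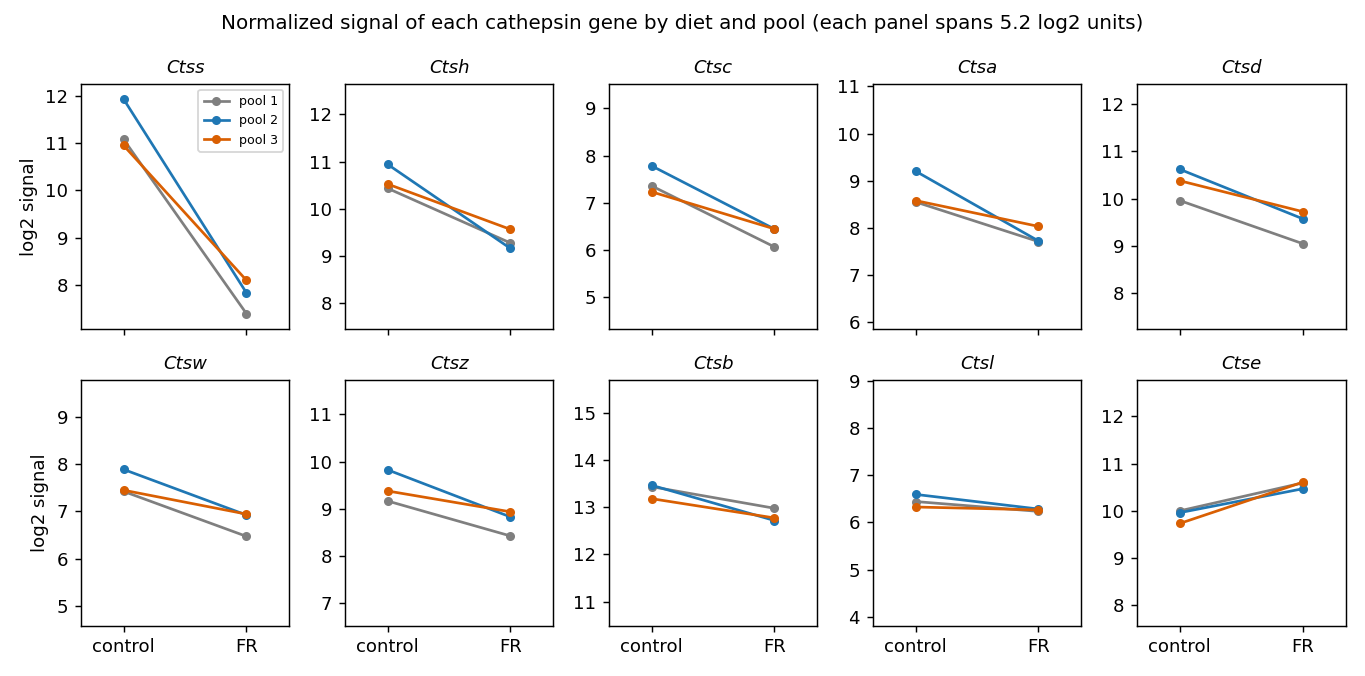
Normalized log2 signal (vertical axis) of the brightest probe of each cathepsin gene in control and FR (horizontal axis), a line for each pool; every panel spans the same number of log2 units. Ctss drops from between 10.95 and 11.93 to between 7.39 and 8.09, Ctsl barely moves near the background, and Ctse rises in all 3 pools.

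The aspartic proteases parted. Ctsd, the main aspartic protease of lysosomes, had control log2 signals of 9.96, 10.62 and 10.38 and FR signals of 9.05, 9.57 and 9.72 in pools 1, 2 and 3. Its ratio was -0.85 ± 0.28 (SD, n = 2 pools), 1.80-fold lower, with a stricter limma p of 0.015. The dye orientation mattered for it: in pool 3 the ratio was -1.12 with FR in Cy5 and -0.19 with FR in Cy3, and on the arrays with FR in Cy3 alone the call ended (adjusted p = 0.063). Ctse, on the probe A_51_P217906, had control signals of 10, 9.96 and 9.73 and FR signals of 10.59, 10.47 and 10.60. All FR pools lay above all control pools. Its log2 ratios were 0.57 and 0.61 in pool 1, 0.53 and 0.48 in pool 2, and 0.88 and 0.87 in pool 3, so the dye orientations differed by at most 0.05. The mean was 0.69 ± 0.26 (SD, n = 2 pools), or 1.61-fold higher, and its rank from the top was 76 of 7906 genes. The adjusted p from limma was 1.61e-05, and 0.027 in the stricter reading. The call ended with median centring, where Ctse was at 0.48 (adjusted p = 0.069), and without the replicate block (adjusted p = 0.055).

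Ctse was then set against the 8 lowered cathepsins together. It lay above each of the 8 on all 6 arrays, and above their mean by 2.06 in pool 2, 1.77 in pool 3 and 1.85 in pool 1. Both sides were called from pools 2 and 3, whose animals pool 1 mixes, so this agreement is not independent support. The difference of 1.91 ± 0.21 (SD, n = 2 pools) passed limma when every feature was tested against that mean (SE 0.45, adjusted p = 0.0011), with 61.2% of named genes higher and 0.379% lower than that mean. Most genes on the array thus shared this direction with Ctse. Against the 6 lowered cathepsins above background in both diets, which leaves out Ctsc and Ctsw, the difference was 2.02 (limma adjusted p = 0.0012). The call against all 8 ended under the stricter limma p of 0.074. A sign-flip test over 2 pools cannot give a p below 0.5.

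**Figure D3:**
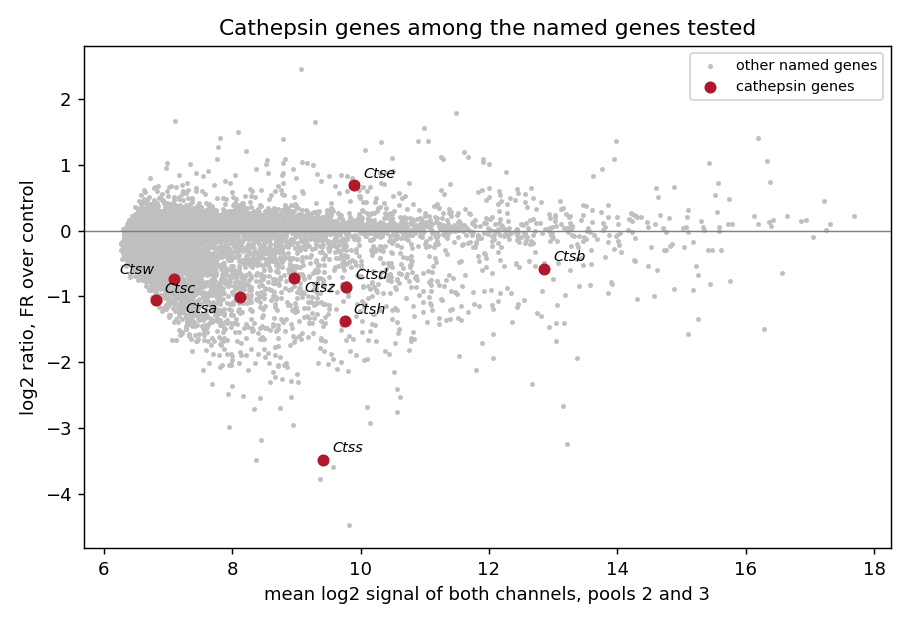
Log2 ratio of FR over control (vertical axis) against mean log2 signal of both channels (horizontal axis) for the named genes tested in pools 2 and 3, with the cathepsins in red. Ctss lies near the bottom edge at -3.48 and Ctse at 0.69 above the main cloud, with the other cathepsins between -1.37 and -0.58.

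Between these ends the order of the falls was loose. From Ctss to Ctsh the step was 2.11 ± 0.30 (SD, n = 2 pools), and from Ctsb to Ctse it was 1.27 ± 0.02, each in the same direction on 6 of 6 arrays and larger than the spread of either gene between pools. Ctsh, Ctsc, Ctsa, Ctsd, Ctsw, Ctsz and Ctsb followed each other by steps of 0.02 to 0.31, none of them larger than that spread, so these 7 were not separated from their neighbours. The place of Ctsc in this order is not defined, since its FR signal was not above background. All 9 tested members had a higher ratio in pool 3 than in pool 2. Their median was -1.05 in pool 2 and -0.55 in pool 3, and Ctse was at 0.51 and 0.87. Over all features the medians of these pools were 0.01 and -0.03. Pool 1 gave a median of -0.91 for the 9.

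Where a gene had several probes, they did not always read the same. Of 15 probes 12 entered a test over all probes, and 11 were lower and 1 higher, with 28.8% and 3.65% of named probes called. A second Ctsa probe was at -0.77 ± 0.50 (SD, n = 2 pools), and the last one, above background in neither diet on any of the 4 arrays, was at 0.02. The second Ctsb probe was at 0.08, and it was above background on 1 of 4 FR arrays and 2 of 4 control arrays. Second probes of Ctsd and Ctsz, above background in both diets, were at -0.47 ± 0.20 and -0.55 ± 0.46, smaller than the brighter probe of the same gene. Neither passed the stricter limma p, at 0.092 and 0.10. Probes near the background hold little information on the size of a change, and probe sequences were not used here.

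By distance over the log2 ratios of the 6 arrays, the 5 genes nearest to Ctss among 7904 were Lyz2 (lysozyme 2), Cd74 (the invariant chain), Ms4a1 (CD20 of B cells), Fcmr (the Fc receptor for IgM) and Ly6d, at distances of 0.95 to 1.25. Their mean ratios lay between -3.77 and -3.18. The 5 nearest to Ctse were Sod2, the mitochondrial superoxide dismutase, Timm17b, a mitochondrial import subunit, Ubxn1, the RNA-binding protein gene Celf1 and the ribosomal gene Rplp0, at 0.18 to 0.27, with ratios between 0.62 and 0.72. Many genes lie near 0 and few near Ctss, so the distances of the 2 sets cannot be compared. The 6 arrays stem from 3 pools of the same animals, and likeness here is a description.

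Other genes of the lysosome and of antigen presentation are given by list, each to be read against the 28.2% of all named genes that were lower; no difference between lists was tested. The list of MHC class II and the invariant chain also holds related genes that do not encode class II chains. It was lower in 10 of 10 tested members, with a median of -1.10, and in 7 of the 7 above background in both diets. Cd74 was at -3.58 ± 0.49 (SD, n = 2 pools), H2-Aa at -2.54 ± 0.82 and H2-Ab1 at -2.53 ± 0.42. Among lysosomal hydrolases 13 of 27 fell (48.1%), with a median of -0.28. Of the 10 above background in both diets 5 fell, and without the replicate block 7 of 27. Lyz2 at -3.23 ± 0.70, Lyz1 at -2.76 ± 0.87 and the aspartic protease Napsa at -1.30 ± 0.44 led them. Of 26 genes of the lysosomal membrane and its acidification, 8 fell (30.8%, near the share of all named genes) and 1 rose (median -0.16). Without pool 3, with pool 1 in its place, 14 fell. In that fit 3270 of all 7906 named genes were lower, against 2229 with pools 2 and 3. Lamp2, a lysosomal membrane glycoprotein, was at -1.45 ± 0.11, the proton pump subunit Atp6v0e at -1.26 ± 0.41 and Laptm5, of leukocyte lysosomes, at -1.23 ± 0.21. The gene that rose, Laptm4a, was at 0.49 ± 0.33, and its call ended under the stricter limma p (0.095).

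Of the genes of cathepsin activation and sorting 2 of 15 were lower, with a median of -0.13. Without pool 3, with pool 1 in its place, 9 were lower, and with median centring 5. Lower calls over all 7906 named genes rose too, from 2229 to 3270 and 3209. Psap, the saposin precursor, was at -1.70 ± 0.71 (SD, n = 2 pools) and Gnptg, a subunit of the enzyme that tags hydrolases with mannose 6-phosphate, at -0.56 ± 0.12. Cathepsin inhibitors went both ways, 5 of 11 lower and 2 higher (median -0.03). Cst3 (cystatin C) fell to -1.67 ± 0.16, Serpinb1a, an inhibitor of neutrophil serine proteases, to -1.64 ± 0.52 and Ctla2a, similar to the propeptide of cysteine cathepsins, to -0.91 ± 0.05. Csta1 and Stfa2l1, of the stefin A family, rose to 0.75 ± 0.43 and 0.83 ± 0.66. Stefin A genes are close copies that one probe may not tell apart, and the call of Stfa2l1 ended under the stricter limma p (0.060). Of 5 granule proteases that cathepsin C can activate, Gzma (granzyme A) fell, to -1.19 ± 0.13, and 4 did not pass, from -0.28 for Gzmb to 0.21 for Cma1. Of 13 other cathepsin genes on the array 4 were bright enough to test. Ctsf rose to 0.86 ± 0.19, Ctso fell to -0.68 ± 0.30 with FR above background on 0 of 4 arrays, and Ctsg and Ctsm did not pass, at 0.10 and 0.14.

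**Figure D4:**
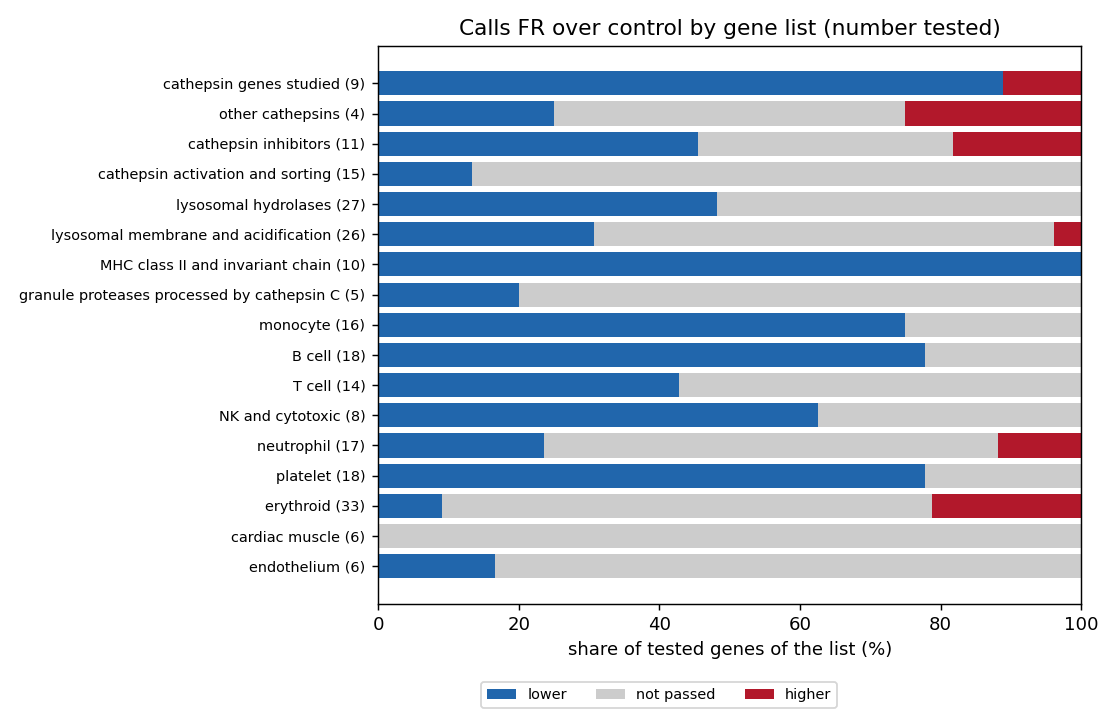
Share of the tested genes of each list (horizontal axis, percent) that were lower (blue), not passed (grey) or higher (red) in FR by the limma adjusted p, with the number tested in brackets. The cathepsins, MHC class II and invariant chain, B cell, platelet, monocyte and NK and cytotoxic lists are mostly lower. Of the B cell markers above background in both diets, 3 of 7 were lower. The erythroid list has more higher than lower genes here, but not with median centring or without pool 3.

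Markers of the blood cells moved in the same pools. Monocyte markers were lower in 12 of 16 tested members (median -0.67, or -0.87 in pool 2 and -0.38 in pool 3), and their summed signal was 7007 to 8457 in the FR pools and 32755 to 48117 in control. Lyz2 is among them, with the adaptor Tyrobp at -2.0 ± 0.68 (SD, n = 2 pools) and F13a1 at -1.45 ± 0.05. With the stricter limma p, 8 monocyte markers were lower, and without the replicate block 5. Lyz2 carried most of the summed signal in control: without it, a sum computed after the data were seen, FR had 3895 to 4458 and control 6010 to 9070. For B cell markers 14 of 18 were lower (median -1.58, summed signal 3376 to 4639 in FR and 12284 to 20818 in control), led by Cd79b at -4.48 ± 0.27, Fcmr at -3.77 ± 0.31 and Ms4a1 at -3.48 ± 0.43. NK and cytotoxic markers were lower in 5 of 8, with summed signals of 663 to 861 in FR and 1455 to 1846 in control, among them Ccl5 at -1.67 ± 0.30 and Nkg7 at -1.52 ± 0.30. T cell markers were lower in 6 of 14, with Cd3d at -1.89 ± 0.25, Thy1 at -1.88 ± 0.33 and Lck at -1.39 ± 0.33 (summed signal 3823 to 4080 in FR, 5199 to 5409 in control). Many of these leukocyte markers entered the test through control alone. Among those above background in both diets, 4 of 7 monocyte, 3 of 7 B cell, 1 of 6 T cell and 1 of 1 NK markers were lower, where 21.9% of all named genes were. Of the defining markers, Ccr2 and Cx3cr1 of monocytes and Klrb1c, Ncr1 and Prf1 of NK cells were above background on 0 of 4 FR arrays. The part of these cells in the fall of the cathepsins was not tested.

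Platelet markers were lower in 14 of 18, with Ppbp at -2.67 ± 0.55 (SD, n = 2 pools), P2ry12 at -2.07 ± 0.32 and Rgs18 at -1.82 ± 0.32 (summed signal 51725 to 55143 in FR, 123489 to 124927 in control). Their median was lower in pool 3 (-1.06) than in pool 2 (-0.89), the opposite order to the cathepsins. Neutrophil markers were lower in 4 of 17 (23.5%, against 28.2% of all named genes) and higher in 2, with a median of -0.13. Their summed signal was 11069 to 12444 in FR and 13424 to 25129 in control. Without S100a9, a sum also computed after the data were seen, FR had 4804 to 5475 and control 5122 to 8309, which overlap. Clec4d was at -1.51 ± 0.03, S100a9 at -0.73 ± 0.77 and S100a8 at -0.65 ± 0.74, while Wfdc21 and Lcn2 rose to 0.47 ± 0.24 and 0.33 ± 0.40. The stricter limma p left 1 neutrophil marker lower and neither of the risen ones. Erythroid markers, beside which Ctse is read, were higher in 7 of 33 and lower in 3, with a median of 0.08 (-0.13 in pool 2, 0.22 in pool 3). All 33 were above background in both diets, and of all such named genes 5.52% were higher and 21.9% lower. With median centring 4 were higher and 5 lower, and without the replicate block 1 and 1. Without pool 3, with pool 1 in its place, 8 were higher and 9 lower. Slc25a37 (the mitochondrial iron importer) rose to 1.05 ± 0.61, Tfrc (the transferrin receptor) to 0.68 ± 0.41 and Epb41 to 0.64 ± 0.42, whereas Car2 was at -0.52 ± 0.39 and Trim10 at -0.51 ± 0.53. By the stricter limma p 4 erythroid markers were higher and 1 lower, and the calls of Epb41 (0.061), Car2 (0.12) and Trim10 (0.15) ended. Their summed signal was 942791 to 1078440 in FR and 832175 to 973196 in control, and their part in the rise of Ctse was not tested. The 6 cardiac muscle markers tested had a median of 0.16, and 1 of 6 endothelial ones fell, Esam at -0.52 ± 0.09, a call lost under the stricter limma p (0.057).

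**Figure D5:**
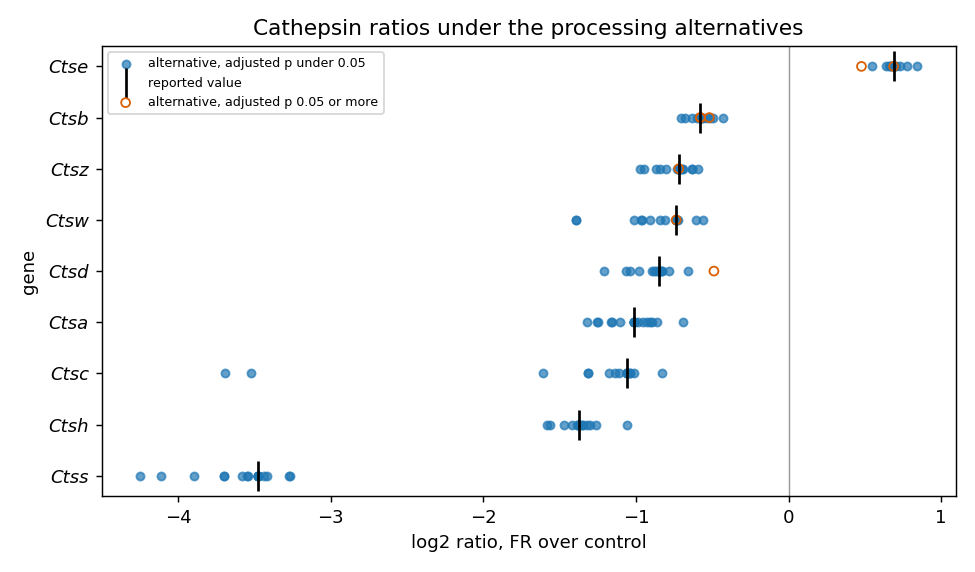
Log2 ratio of FR over control (horizontal axis) of each tested cathepsin gene (vertical axis) under each processing alternative: blue points passed an adjusted p of 0.05, open orange points did not, and the black mark is the reported value. No point crosses 0, Ctse stays between 0.48 and 0.84, and Ctsc reaches -3.69 without the background offset.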

How the data were processed

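Whole blood RNA of FR and control mice was read on 6 two-colour Agilent whole mouse genome arrays, with between 20.4% and 62.1% of probe spots per channel well above background and no spot saturated. Column-purified RNA was amplified linearly before labelling, per the labels' protocols. Each deposited scanner file, written by Agilent Feature Extraction (version 11.0.1.1 in the submitters' processing notes), gives spot intensity on a linear scale. A further table deposited by the authors gives log10 ratios of red over green processed signal, which matched the scanner files within 1e-06, not centred and not turned. Dye labels set the sign of every ratio.

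Here median signals were corrected with normexp (offset 50) and normalized by loess within arrays with control spots at weight 0. Control and outlier spots were left out, ratios were turned to FR over control, and the 2 arrays of a pool were averaged. The brightest probe stood for a gene. The two-sided test was run with limma 3.58.1 (lmFit, then eBayes with a variance trend; R 4.3.3). It covered pools 2 and 3 and 11499 features, and all probes for the probe counts. The pool is a block by construction, since FR and control share an array. Log2 signals per channel came from loess and Aquantile normalization, and summed signals are sums of these on the linear scale. The test was checked on simulated data drawn with the fit's own common variance. Such data cannot show whether the p-values hold where genes differ in spread. Probes were named by RefSeq accession (GRCm38.p6), so probes with other identifiers are not counted for any gene. Genes named besides the cathepsins were, per list, up to 3 per direction with the largest ratio among those past the threshold with the same sign in both pools, and the 5 nearest to Ctss and to Ctse; 1 gene that this rule names is not reported here. The cathepsins and the lists were chosen with earlier results of these data known. No set test was run. Replicates are pools. Each gene's standard error in the reported fit came from the variance common to genes of like signal, not its own spread between pools.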

Additional observations from a re-analysis of the deposited data

How the results depend on the processing

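Over 19 alternatives no cathepsin ratio changed sign, and of 169 ratios computed 161 kept their side of the threshold and 8 did not. Several alternatives, such as the stricter limma p and the unpaired fit, change only the test or the filter. No ratio could change sign in those. Median centring left 0 cathepsins and 0 cathepsin probes higher. Treating the channels as unpaired (no replicate block) left 5 cathepsins and 5 probes lower and 0 cathepsins higher, and the arrays with FR in Cy3 alone left 7 probes lower. Under the stricter limma p, Ctse stood above the others by the same 1.91, but the limma adjusted p rose to 0.074. The limma adjusted p of this difference lay between 4.47e-07 and 0.0040 under the other alternatives that used pools 2 and 3 alone. Fits that include pool 1 gave smaller values, but pool 1 mixes the same animals, so these values are not independent support. Without pool 2 and without pool 3, with pool 1, which holds animals of both, in its place, the counts were 8 lower and 1 higher in both cases, and the difference was 1.81 and 1.95. Among all named genes, 2229 were lower and 258 higher. The lower count became 1413 under the stricter p, 780 without the replicate block, 3209 with median centring and 3270 without pool 3. The higher count became 107 with median centring, 102 under the stricter p, 67 without the replicate block, 1050 without pool 3, 581 with all 3 pools, 446 with the slide as a block and 625 with FR in Cy5 alone. Of 608 counts over the gene lists 515 stayed within 1.5 times. Dim signals limit Ctsc, Ctsl and Ctsw, and the number of pools limits all p-values.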
